A study of Homo sapiens with 6 samples.

Results

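The protein kinase A (PKA) subunits and their inhibitors were followed in PC-3 cells, an established human prostate adenocarcinoma line derived from a bone metastasis, as 9 of the 22933 genes with a symbol in the deposited RNA-Seq table. The 9 are the regulatory subunit genes PRKAR1A, PRKAR1B, PRKAR2A and PRKAR2B, the catalytic subunit genes PRKACA and PRKACB, and the inhibitor genes PKIA, PKIB and PKIG. They were listed by name, with earlier results of these data known. All cells carried the Tet-On Advanced transactivator (rtTA2) from a first retrovirus. The control group, tdTom, had received a second retrovirus with the red fluorescent protein tdTomato under a PGK promoter, and the TTP-tdTom group the same vector with tristetraprolin (TTP) added under the Dox-responsive Tight promoter. Both were selected for G418 resistance and tdTomato, and both were kept in 300 ng/ml doxycycline (Dox) for 4 hours. The vectors differed by the TTP insert, and the groups are also separately infected and selected populations, which the design cannot tell apart from it. There were 3 samples in each group, and the table holds 1 FPKM value for each group (sequenced fragments corrected for transcript length and library size). The spread between samples is therefore not known, no test between the groups was made, and every difference below is a description of these 2 pooled values. The labels give triplicate samples and do not say whether these were separate cultures, and the depth of each sample was not read from the FPKM values.

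PKA is the main effector of cyclic AMP (cAMP) in most cells. Regulatory subunits hold the catalytic subunits inactive, cAMP binds the regulatory subunits and frees the catalytic ones, and the freed kinase phosphorylates targets such as the transcription factor CREB. The PKI proteins are small pseudosubstrate inhibitors that bind free catalytic subunits and carry them out of the nucleus. In prostate cells, cAMP and PKA are known for their links to neuroendocrine differentiation. TTP is an RNA-binding protein that recognises AU-rich elements in 3′UTRs and speeds the decay of the mRNAs that carry them, and the comparison asks how far PKA transcripts differed soon after its induction.

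ZFP36, the gene that encodes TTP, was at 5.56 FPKM in tdTom cells and 5.54 FPKM in cells labelled TTP-tdTom. The gene's own row thus showed no higher level in the group that carries the transgene, and every direction below is between the groups as labelled. Whether transgene fragments were counted in that row was not tested. The study also assayed TTP mRNA and protein, and PRKAR1A and PRKACB mRNA, by other methods in cells of these lines. The directions that the paper reports for them run the way the labels say, and those assays are not analysed here. The TTP mRNA assay in these lines followed a longer Dox treatment than the 4 hours of the sequenced samples. The assays of PRKAR1A and PRKACB were at 4 hours, and those of TTP protein included that time. The epithelial keratin genes KRT18 and KRT8 were at 98.2 and 20.9 FPKM in the tdTom group. EPCAM was at 15.1 FPKM, while the epithelial cadherin gene CDH1 was below 1 FPKM in both groups, at 0.119 and 0.39. Of the stromal and immune markers, the endothelial genes PECAM1 and VWF and the leukocyte gene PTPRC were below 1 FPKM in both groups, whereas COL1A1 stood at 4.34 FPKM and the lysosomal gene CD68 at 323.2 FPKM in the tdTom group, and COL3A1 was at 2.46 FPKM there and listed at 0 in the other.

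All 9 members reached 1 FPKM in each group, and 8 of them had the lower value in the group labelled TTP-tdTom. Differences are given as log2 of the TTP-tdTom value over the tdTom value, with 0.1 FPKM added to each. PRKACB, PRKAR2B and PRKAR1A were lower by at least 2-fold, so that 3 of 9 members passed this size, against 9.05% of the 13320 symbols with at least 1 FPKM in either group. At a size of 1.5-fold, PKIA, PKIB and PRKAR2A joined them, which made 6 of 9 lower against 22.9% of all symbols. In FPKM as given, none of the 9 was higher by 2-fold or by 1.5-fold, where 3.42% and 4.86% of all symbols were. The members' median difference was -0.75 and that of all symbols -0.23. The shift of all symbols is subtracted where a difference is called relative to it. Relative to that shift, PRKACB was at -1.01, PRKAR2B at -0.92 and PRKAR1A at -0.81, so that 1 of 9 was past 2-fold, against 4.96% of all symbols. Rescaled to the same FPKM sum, 5 of 9 were past it, against 17.6%. PRKAR1B was higher by 0.69 relative to the shift of all symbols, which is past 1.5-fold but not 2-fold. The share of all symbols higher by 1.5-fold was not counted on that scale. In bulk RNA, a lower value can come from less of the transcript in each cell or from fewer cells that hold it, and these cannot be told apart.

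**Figure D1:**
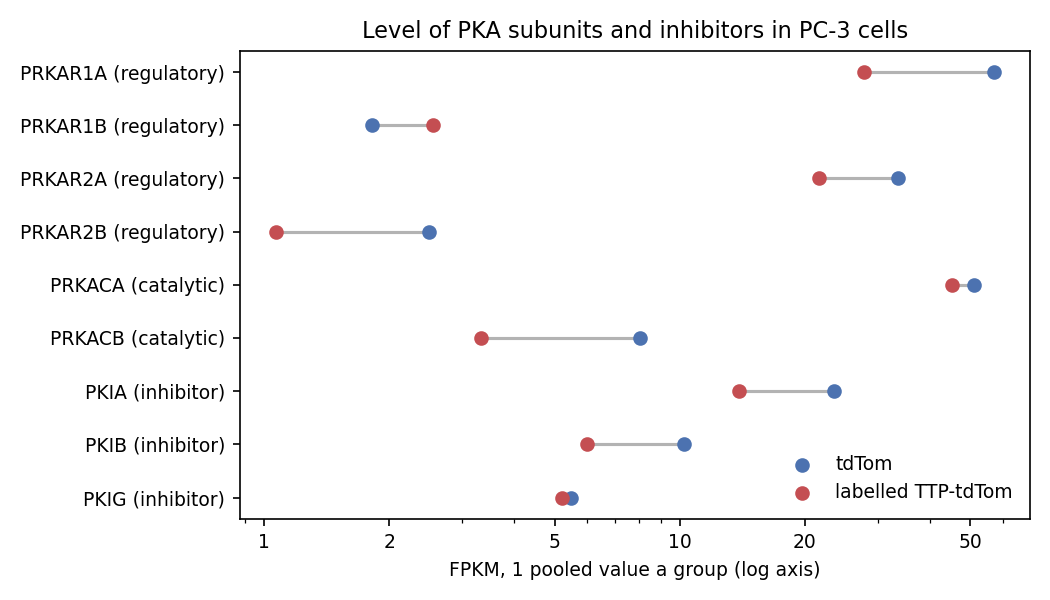
FPKM of each member (log axis) as 1 pooled value for the tdTom group and 1 for the group labelled TTP-tdTom, joined by a line. PRKAR1A and PRKACA are near each other in the tdTom group, at 57.0 and 51.0, and stand apart in the other group, at 27.7 and 45.1.

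The regulatory subunits came first in abundance, and among them PRKAR1A, which encodes the RIα subunit and is the gene mutated in Carney complex. On GRCh37, its locus as assembled by the authors spans chromosome 17 from 66507903 to 66529900, and all loci of members below are on that build. Its level was 57.0 FPKM in tdTom cells and 27.7 FPKM in cells labelled TTP-tdTom, which left 48.6% of the control level and a log2 difference of -1.04. This was the highest level of the 9 in the tdTom group, where 89.8% of expressed symbols were lower. In the other group PRKACA stood above it. Of all symbols, 8.20% had a more negative difference. A pseudogene copy, PRKAR1AP1, exists on another chromosome and is not a symbol of the table. How fragments shared with it were assigned was not tested.

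PRKAR2A, which encodes the RIIα subunit, was the next regulatory gene in level. It lies on chromosome 3 from 48783804 to 48885346. Its level was 33.4 FPKM in tdTom cells and 21.6 FPKM in cells labelled TTP-tdTom, a log2 difference of -0.63, with 64.5% of the control level left. RII subunits are the ones most often tethered by A-kinase anchoring proteins. The difference of PRKAR2A was smaller in size than that of PRKAR1A, and 20.8% of all symbols had a more negative value.

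PRKAR2B, which encodes RIIβ, the form known from brain and fat, was low in both groups. It lies on chromosome 7 from 106685178 to 106802256. Its level was 2.49 FPKM in tdTom cells and 1.07 FPKM in cells labelled TTP-tdTom, a log2 difference of -1.15. At levels this low single values scatter more, and the symbols in the same decile of mean FPKM had differences from -0.76 to 0.54 between their 10th and 90th percentiles. PRKAR2B lay below that range, with 4.50% of its decile more negative. With 1 FPKM added in place of 0.1, its difference was -0.76 and no longer past 2-fold.

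PRKAR1B, which encodes the RIβ subunit, best known from neurons, was the only member higher in the group labelled TTP-tdTom in FPKM as given. Its level was 1.82 FPKM in tdTom cells and 2.55 FPKM in the other group, a log2 difference of 0.46. It was the lowest member of the tdTom group. The difference lay inside the 10th to 90th percentile range of its FPKM decile, -0.76 to 0.54, and 94.2% of all symbols had a more negative one. Its row spans chromosome 7 from 587937 to 826116, and a row for HEATR2 has the same span. HEATR2 was at 11.7 FPKM in both groups, and how fragments were shared between the pair was not tested.

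**Figure D2:**
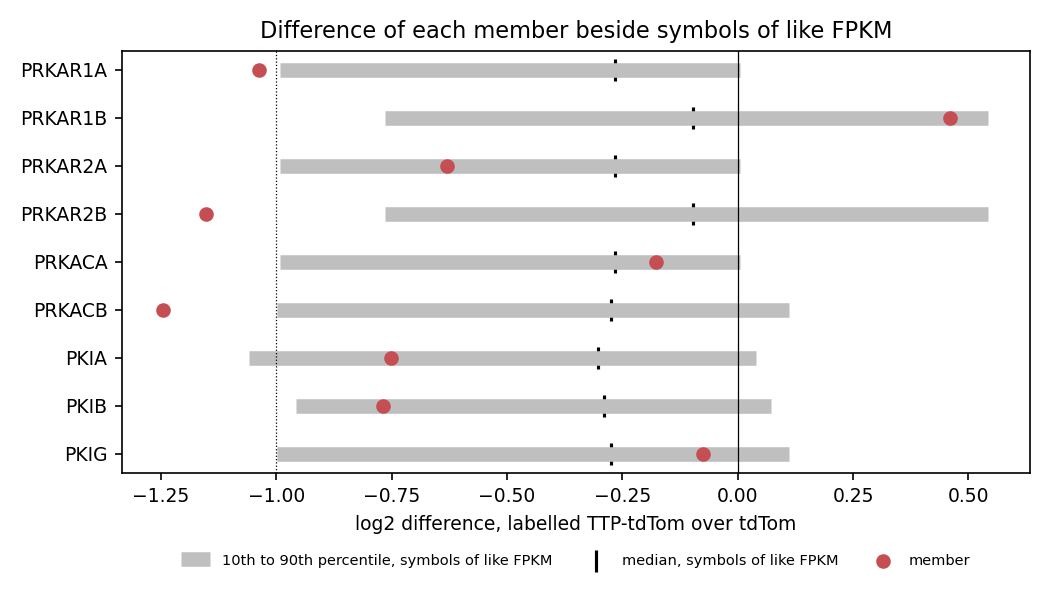
Log2 difference of each member (red points) with the 10th to 90th percentile range and the median of all symbols in the same decile of mean FPKM. PRKAR1A, PRKAR2B and PRKACB lie below the range of their decile and the other 6 members lie within it.

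The catalytic subunits differed from each other. PRKACA, which encodes the ubiquitous Cα subunit, lies on chromosome 19 from 14202507 to 14228559. Its level was 51.0 FPKM in tdTom cells and 45.1 FPKM in cells labelled TTP-tdTom, a log2 difference of -0.18. This was less negative than the median of all symbols, and relative to that median the difference was 0.05. PRKACB, which encodes the Cβ subunit with its several N-terminal forms, lies on chromosome 1 from 84543745 to 84704181 and carries 9 RefSeq names in the table. Its level was 8.04 FPKM in tdTom cells and 3.33 FPKM in cells labelled TTP-tdTom, a log2 difference of -1.25. This was the most negative of the 9, with 41.5% of the control level left and 4.77% of all symbols below it. The table holds 1 value for the gene, so that its transcript forms were not told apart here. PRKACA was 6.34 times as abundant as PRKACB in the tdTom group and 13.5 times in the other.

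PKIA, which encodes PKIα, the form that is abundant in muscle and brain, lies on chromosome 8 from 79428336 to 79517505. Its level was 23.5 FPKM in tdTom cells and 13.9 FPKM in cells labelled TTP-tdTom, a log2 difference of -0.75. PKIB, the β form, lies on chromosome 6 from 122793062 to 123047518. Its level was 10.3 and 5.98 FPKM in the same order, a log2 difference of -0.77. PKIA and PKIB thus had nearly the same difference, and PKIA was 2.29 times as abundant as PKIB in the tdTom group and 2.32 times in the other. PKIG, the widely expressed γ form, lies on chromosome 20 from 43160436 to 43247678. Its level was 5.48 and 5.20 FPKM, a log2 difference of -0.07, and relative to the median of all symbols it was 0.16 higher. The differences of all 3 inhibitor genes lay within the range of their FPKM deciles.

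In the tdTom group the order of levels from the highest was PRKAR1A, PRKACA, PRKAR2A, PKIA, PKIB, PRKACB, PKIG, PRKAR2B and PRKAR1B. In the group labelled TTP-tdTom, PRKACA came first, PKIG stood above PRKACB, and PRKAR1B stood above PRKAR2B. With 1 value for each group, it is not known which neighbours in this order differ beyond the spread between samples.

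FPKM is scaled to transcript length, so the levels of the genes can be added by role. The 4 regulatory genes summed to 94.7 FPKM in the tdTom group and 52.9 FPKM in the group labelled TTP-tdTom, which was 55.8% of the control sum. The catalytic genes summed to 59.0 and 48.4 FPKM, or 82.1% of the control sum, since PRKACA made up most of it. The inhibitor genes summed to 39.2 and 25.1 FPKM, or 64.0%. Regulatory transcript per catalytic transcript was 1.60 in tdTom cells and 1.09 in the other group, and inhibitor transcript per catalytic transcript was 0.664 and 0.518. These are ratios within a group, which no scaling of the FPKM values alters, and they say nothing of the protein.

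Within each role the make-up differed as well. PRKACA supplied 86.4% of catalytic FPKM in the tdTom group and 93.1% in the group labelled TTP-tdTom. Type I genes, PRKAR1A and PRKAR1B, supplied 62.1% and 57.2% of regulatory FPKM. PKIG supplied 13.99% and 20.7% of inhibitor FPKM. PRKAR1A stood at 1.12 times the level of PRKACA in the tdTom group and at 0.614 times in the other.

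**Figure D3:**
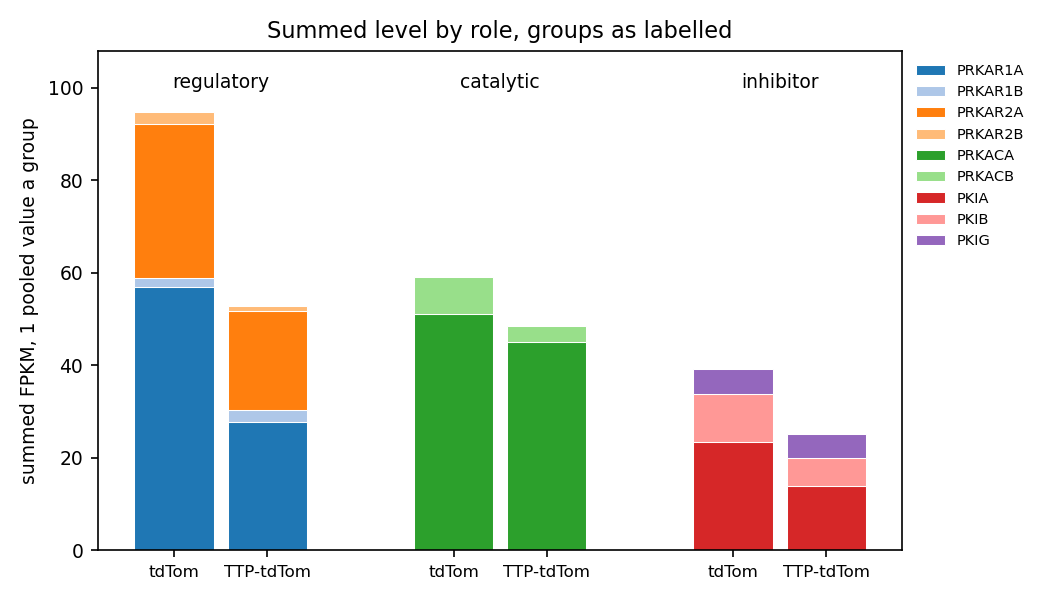
Summed FPKM of the regulatory, catalytic and inhibitor genes in the tdTom group and the group labelled TTP-tdTom, stacked by gene. The regulatory sums are 94.7 and 52.9 and the catalytic sums 59.0 and 48.4.

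The 3′UTRs of the members were read from GENCODE release 29, taking for each gene the protein-coding transcript with the longest 3′UTR. The heptamer UAUUUAU, the core of TTP's binding site, was sought on the transcript strand and was present once in 3 of the 9 members and absent from this window in the other 6, while 36.2% of the 11204 expressed symbols with a 3′UTR held it. In the deciles of 3′UTR length to which the members belong, the share that held it ran from 17.8% (PKIG) to 79.0% (PRKAR2A). Windows of 29 bases around the heptamer (in capitals) are shown for the 3 members that held it, as the only copies in their longest 3′UTRs.
PRKAR1A: cugccugguuuUAUUUAUaucuuguuauu
PRKAR2A: aauuuagcuugUAUUUAUuuaaaacccau
PKIG: ccacaagauguUAUUUAUugagcuggcgc
On GRCh38, the build of that annotation, the heptamers lie in the 3′UTR exon on chromosome 17 from 68531074 to 68531080 (plus strand), on chromosome 3 from 48749368 to 48749374 (minus strand) and on chromosome 20 from 44618619 to 44618625 (plus strand). In PKIG the copy is part of the nonamer UUAUUUAUU, which contains the heptamer and which 9.45% of all these 3′UTRs held. In the FPKM values as given, PKIG was the member with the smallest difference in size. Relative to the median of all symbols it was PRKACA, at 0.05 against 0.16 for PKIG. PRKACB, PRKAR2B, PKIA and PKIB were lower without a heptamer in this window. In PRKACB, 2 of 12 annotated transcripts have another 3′UTR, which holds 1 copy, on chromosome 1 of GRCh38 from 84204749 to 84204755 (plus strand).
PRKACB: uauauuacuuuUAUUUAUauucauauaag
The heptamer is in 4 of 7 annotated transcripts of PRKAR1A with a 3′UTR, 1 of 6 of PRKAR2A and 6 of 7 of PKIG, and in none of those of the other 5 genes. The single value of each row does not tell which of these ends was measured.

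The pentamer AUUUA, which lies inside the heptamer and marks AU-rich elements in their loosest form, was counted in the same longest 3′UTRs after the heptamer result was seen. It occurred in 8 of the 9 members and in 74.0% of all 3′UTRs, at a median of 1.73 copies per kilobase over all symbols and 4.69 at their 90th percentile. PKIB had 5.94 copies per kilobase, PRKAR1A 5.70, PRKAR2B 4.49, PRKACB 3.76 and PKIA 3.19. PRKAR2A had 2.20, PKIG 1.49 and PRKACA 1.40, and PRKAR1B had 0 in 1233 bases. The 5 members with the most copies per kilobase were also the 5 with the most negative differences. PRKAR1B, with none, was the 1 that was higher in FPKM as given. Relative to the median of all symbols, PRKAR1B was higher by 0.69, and PRKACA and PKIG were also higher, by 0.05 and 0.16. Spearman's rho between copies per kilobase and the log2 difference was -0.82 over the 9 members and -0.41 over 11204 symbols. For the number of heptamers it was 0.18 over the members and -0.31 over the symbols. For the AU content of the same longest 3′UTRs it was -0.83 over the members. Whether pentamers tracked the differences apart from AU content was not tested. All these values of rho are across genes of the same libraries, which are not independent replicates. Windows of 29 bases with the most pentamers (in capitals) are shown for the members that lacked the heptamer but held the pentamer in their longest 3′UTR, except PKIA. PRKACA, with a difference of -0.18, had as many pentamers in its window as PRKACB and PRKAR2B.
PRKACB: ucaAUUUAccugcauauaaaAUUUAuuuu
PRKAR2B: uugcagAUUUAuuuggccAUUUAgaauaa
PKIB: ucucuuuuggAUUUAUUUAgccugaugua
PRKACA: acaacaAUUUAaaaucuuAUUUAaguucc
They lie in the 3′UTRs on GRCh38 at chr1:84236874-84236902, chr7:107161717-107161745 and chr6:122725488-122725516 on the plus strand and, for PRKACA, chr19:14092544-14092572 on the minus strand. The pair of pentamers in PKIB share a base, and those of the other 3 genes are apart.

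Base composition moved with the differences. The transcripts with the longest 3′UTR had a GC content of 33.4% for PKIB, 35.4% for PRKACB, 38.5% for PKIA, 38.6% for PRKAR1A and 40.5% for PRKAR2B. It was 45.5% for PRKAR2A, 56.5% for PRKACA, 57.9% for PKIG and 62.6% for PRKAR1B. Spearman's rho between GC content and the log2 difference was 0.80 over the 9 members and 0.47 over the 11204 symbols. The median difference of all symbols was -0.75 in the decile of lowest GC content and -0.08 in the decile of highest. PKIB, at -0.77, lay near the median of its decile, -0.75, and PKIG, at -0.07, near its own, -0.11. PRKACB, at -1.25, PRKAR1A, at -1.04, PRKAR2B, at -1.15, and PRKAR2A, at -0.63, lay below the 25th percentile of their GC deciles, which were -1.05, -0.90, -0.74 and -0.49. PRKAR1B lay above the 75th percentile of its decile, 0.08. The part of base composition in these differences was not tested.

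**Figure D4:**
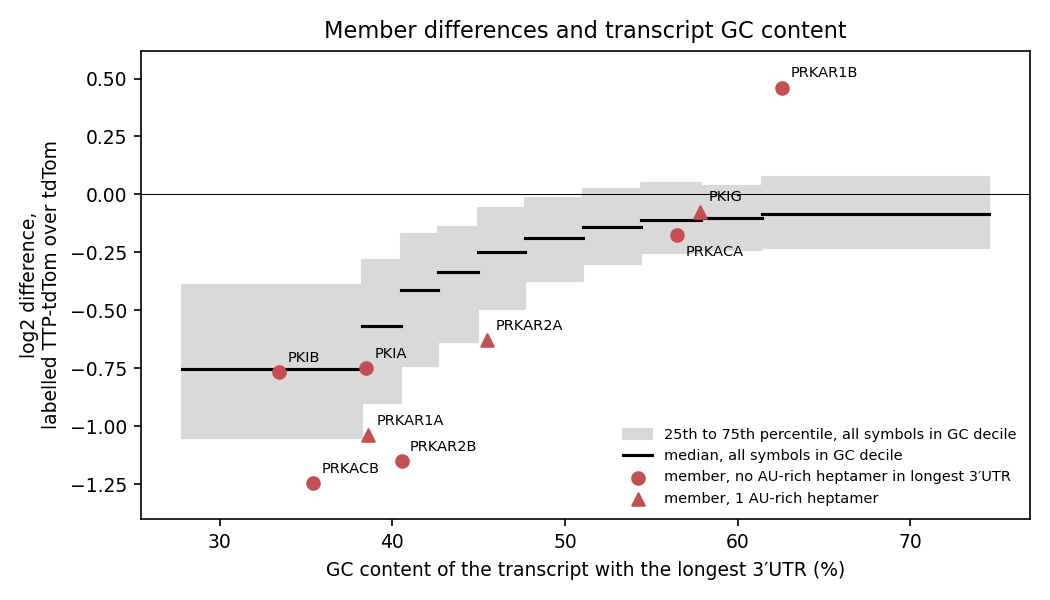
Log2 difference of each member against the GC content (%) of its transcript with the longest 3′UTR, with the median (black) and quartile range (grey) of all symbols in each decile of GC content. Triangles mark the 3 members whose longest 3′UTR holds the AU-rich heptamer, and PRKACB, PRKAR1A, PRKAR2A and PRKAR2B lie below the grey range of their decile.

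The rest of the cAMP pathway was described through 8 lists of genes, from receptors to CREB. Of their members, 66 symbols had at least 1 FPKM in either group, 8 of them were lower by at least 2-fold in the group labelled TTP-tdTom, or 12.1%, and 1 was higher, against 9.05% and 3.42% of all symbols. The median difference of the 66 was -0.33. The gene that was higher, the adenosine receptor gene ADORA2A, was listed at 0 in the tdTom group, and 1 of the 8 lower genes, the phosphodiesterase gene PDE3B, was listed at 0 in the other group. Both were at a few FPKM where detected (1.73 and 7.72), and no fold is given for them. Another of the 8, the receptor gene CALCRL, also reached 1 FPKM only in the tdTom group, where it was the higher. With at least 1 FPKM required in both groups, 6 of 60 symbols were lower by 2-fold and 0 higher, against 7.55% and 0.316% of all symbols. The scaling moved these values. Rescaled to the same FPKM sum, 18 of 66 were lower, against 17.6% of all symbols, with a median of -0.62. Relative to the median of all symbols, 6 of 66 were lower, against 4.96%, with a median of -0.10.

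Upstream of cAMP, GNAS, which encodes the α subunit that activates adenylyl cyclase, was at 145.5 FPKM in the tdTom group and 122.8 in the group labelled TTP-tdTom, a log2 difference of -0.24. Of the 6 α subunit genes, 1 was lower by 2-fold, against 9.05% of all symbols, and their median was -0.22. This was GNAI1, an inhibitory one, with 4.36 and 1.71 FPKM and a difference of -1.30. The other inhibitory genes GNAZ, GNAI3 and GNAI2 had differences of -0.25, -0.19 and -0.15 at tdTom levels of 20.7, 10.7 and 91.9 FPKM. Among the 9 expressed receptor genes, 1 was lower by 2-fold, and the median was -0.34 (-0.51 over the 8 above 0 in both groups). It was CALCRL, at 1.51 and 0.528 FPKM, with -1.36, which met the minimum of 1 FPKM only through the group where it was higher. With that minimum in both groups, no receptor gene counted as lower by 2-fold. Only 4 of 10 adenylyl cyclase genes passed 1 FPKM, 0 of them past 2-fold in either direction, with a median of -0.22. The most negative were ADCY7 at -0.47 and ADCY6 at -0.23. Among 8 expressed phosphodiesterase genes, whose products break down cAMP, the median was -0.58 (-0.49 over the 7 above 0 in both groups). Of the 8, 2 were lower by 2-fold against the same 9.05%. These were PDE3B, listed at 0 in 1 group as given above, and PDE8A, with 5.62 and 2.74 FPKM and a difference of -1.01. Lists of 4 to 9 genes are small beside a share of 9.05%, and nothing is read from their counts.

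Of the genes that place PKA in the cell, 20 of 28 anchoring protein symbols were expressed, 2 were lower by at least 2-fold against 9.05% of all symbols, and their median was -0.50. AKAP11 stood at 17.9 FPKM in the tdTom group and 7.02 in the group labelled TTP-tdTom, a difference of -1.34. C14orf129, an older symbol of the PKA and GSK3β binding protein GSKIP, stood at 16.5 and 7.20 FPKM, a difference of -1.18. The anchoring genes with the highest levels were MYCBP, at 150.6 and 117.5 FPKM with a difference of -0.36, EZR, which encodes the membrane linker ezrin, at 126.8 and 76.6 FPKM with -0.73, and AKAP12, at 66.3 and 56.6 FPKM with -0.23. Of the others with at least 10 FPKM, ARFGEF2 had a difference of -0.96, AKAP9 -0.67, AKAP2 -0.54, ACBD3 -0.46, AKAP1 -0.12 and RAB32 -0.07. AKAP8 and AKAP8L share 1 row, with a difference of 0.03, and count as separate symbols above. Of the 5 other effectors expressed, 1 was lower by 2-fold, and their median was -0.46. It was PJA2, a ubiquitin ligase that acts on regulatory subunits, at 7.36 and 2.36 FPKM, a difference of -1.60. PRKG1, a cyclic GMP-dependent kinase gene, was next, at 10.2 and 6.84 FPKM and a difference of -0.57. The other 3 were POPDC3 at -0.46, PRKX at -0.31 and AKIP1 at -0.01.

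Downstream, 1 of 8 expressed CREB family and coactivator genes was lower by 2-fold, against 9.05% of all symbols, and their median was -0.32. It was ATF1, a CREB family transcription factor that PKA phosphorylates, at 37.2 FPKM in the tdTom group and 10.9 in the group labelled TTP-tdTom, a difference of -1.77. The coactivator gene EP300 was at 22.2 and 13.2 FPKM, a difference of -0.74, and CREB1 at 8.84 and 5.74 FPKM, a difference of -0.61. CREBBP, which encodes the coactivator CBP, was at -0.32 and CREM, a CREB relative, at -0.31. The transducer genes CRTC3 and CRTC1 were at -0.05 and 0.15, and CRTC2 stood at 15.5 and 15.4 FPKM. Of 6 expressed cAMP response genes, 0 were past 2-fold in either direction, against 9.05% and 3.42% of all symbols, with a median of -0.19, and with so few genes nothing is read from that count. DUSP1 was the most negative at -0.63, JUNB was at -0.41 and CITED2 at 0.17. In a list of protein kinase C genes that also holds related kinase genes such as PKN2 and the protein kinase D genes, 2 of 12 expressed genes were lower by 2-fold, against 9.05% of all symbols, and the median was -0.59. These were PRKCI, at 56.1 and 23.4 FPKM with a difference of -1.26, and PKN2, at 7.77 and 3.74 FPKM with a difference of -1.04. Among others with at least 10 FPKM, PRKCA was at -0.87, PRKCD at -0.75, PRKCH at -0.68 and PRKCZ at 0.15.

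**Figure D5:**
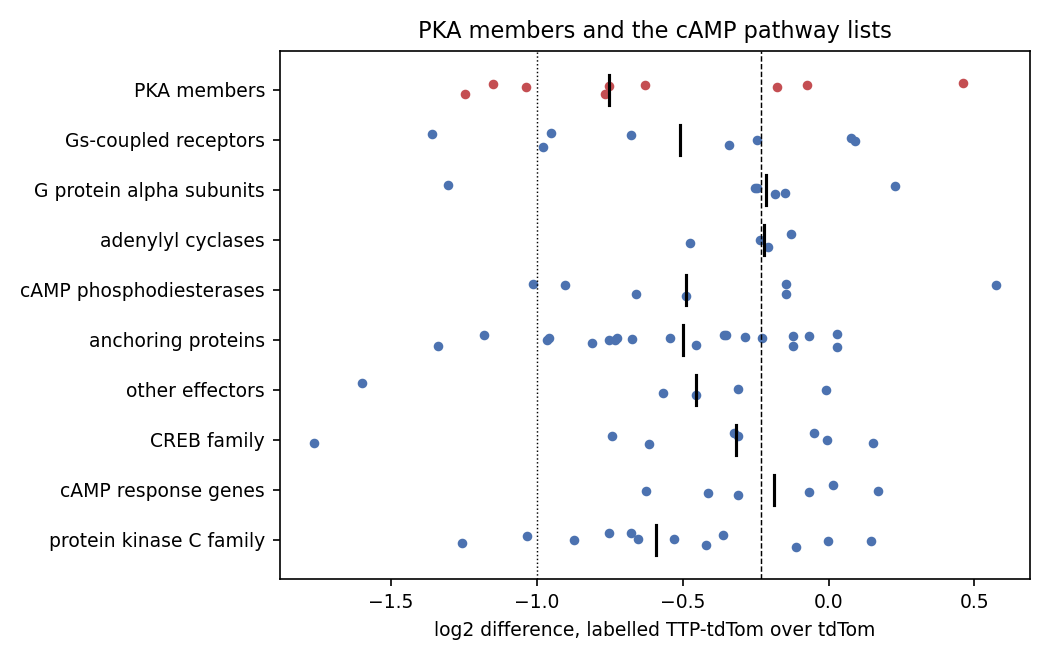
Log2 difference of the PKA members (red) and of the genes in each list (blue) that have at least 1 FPKM in either group and an FPKM above 0 in both, with list medians as black bars. The dashed line is the median of all symbols, -0.23, and the dotted line is a 2-fold lower value. The median of the PKA members, -0.75, lies left of the dashed line.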

How the data were processed

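RNA-Seq libraries of PC-3 cells, 3 tdTom and 3 TTP-tdTom, were strand-specific and sequenced in paired-end runs. Per the methods and the submitters' processing notes, the authors aligned reads with TopHat2 2.0.13 to Hs37D5 (GRCh37 with decoys) and assembled and compared loci with Cufflinks 2.2.1. The deposited FPKM values were made by the authors as 1 estimate per group and locus, so replicates were already pooled. The table's columns of fold changes, test statistics and p-values hold the authors' own comparison and were not used.

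Of 406165 loci, those with a symbol were reduced to 1 row per symbol, the row with most RefSeq names, then the highest summed FPKM. Each member had 1 row. Log2 differences used a pseudocount of 0.1 FPKM over symbols with at least 1 FPKM in either group, and sizes of 2-fold and 1.5-fold were counted. FPKM kept no step of a single fragment (452 different values among 452 non-zero ones at unnamed loci of 400 bases), so the depth reached in each sample is not known from them and no interval is given (the methods state only an intended number of read pairs). Locus starts are counted from 1. Locus ends are those of the authors' assembly and can exceed the gene. Symbols were matched to GENCODE release 29 by name or older symbol, and 92.0% of expressed symbols with a protein-coding RefSeq name had a 3′UTR. Protein sequences were not used here.

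The members and lists were chosen with earlier results of these data known. Genes named were the 9 members, ZFP36, marker genes and, in each list, the 2 with the largest difference and others of at least 10 FPKM. CREB1, CRTC1, CRTC3, POPDC3, PRKX and AKIP1 were added after their values were seen. A few genes of these lists are not reported here. The function for the differences was run on tdTom values with known changes put in and no noise added. That run checks the code alone and not how the counts behave under spread between samples. Alternatives were other pseudocounts, filters, rows per symbol, scalings and fold sizes. Computation was in Python 3.11.15 (numpy 2.4.6, pandas 2.3.3, matplotlib 3.10.9).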

Additional observations from a re-analysis of the deposited data

How the results depend on the processing

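No paired analysis was possible because the table holds 1 value per group, and for the same reason no replicate could be left out. The number of members lower by 2-fold, 3, was 2 with a pseudocount of 1 (6.22% of all symbols under that setting), 1 at a minimum of 10 FPKM (5 members left, 11.2% of symbols), 6 at 1.5-fold (22.9%), 1 after centring on the median of all symbols (4.96%) and 5 after rescaling to the same FPKM sum (17.6%). The rescaling is a shift of -0.30 before the pseudocount is added, and 10 symbols held 44.8% of it in the group labelled TTP-tdTom and 22.0% in tdTom. Rescaled over protein-coding names alone, chosen after seeing the data, the shift was 0.22 and 1 member, PRKACB, was lower by 2-fold (5.17% of symbols). The members' median, -0.75, was -0.76 without pseudocount, -0.69 with a pseudocount of 1, -0.52 centred, -1.05 rescaled and -0.53 rescaled over protein-coding names. PRKACA and PKIG changed sign when centred (0.05 and 0.16) and when rescaled over protein-coding names (0.04 and 0.14), and the other 7 members kept their sign under every setting that gave them a value. The cause of these shifts was not tested.

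For the cAMP lists, 8 lower and 1 higher of 66 became 5 lower of 66 with a pseudocount of 1 (6.22% of all symbols), 3 lower and 0 higher of 26 at 10 FPKM (11.2%), 6 lower and 0 higher of 60 at 1 FPKM in both groups (7.55%), 18 lower of 66 when rescaled (17.6%) and 23 lower of 66 at 1.5-fold (22.9%). The higher count was 0 of 64 without pseudocount, 2 of 105 without a filter, 4 of 69 with the highest row and 6 of 75 with rows summed, where 2.45%, 5.04%, 4.45% and 4.50% of all symbols were higher. Their median, -0.33, was -0.34 without pseudocount and at 10 FPKM, -0.30 with a pseudocount of 1, -0.24 without a filter, -0.32 with the highest row and with rows summed, -0.10 centred, -0.62 rescaled and -0.12 rescaled over protein-coding names.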
